A study of Mus musculus with 9 samples.

Results

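The macrophage and myeloid marker genes of mouse pancreatic islets were examined as a list of 41 gene names that covers receptors, integrins, lysosomal proteins and signalling proteins and leaves out the C1q chains and MHC class II. Members were the genes of the deposited count table whose gene name stood on the list, and 40 of the 41 names were found among 56748 genes. The other name matched no gene name in the table and was not analysed here. Of the 40 members found, 38 passed the filter on low counts, and Mrc1 and Ccr2 did not.

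Total RNA of primary islets of wild-type C57BL/6 mice had been sequenced in 3 groups of 3 libraries. Particle islets received the cytokines IL6, TNF-alfa and IL-1beta for 48 hours together with PD-G-MSNPs, which are polydopamine-coated mesoporous silica nanoparticles, inflamed islets received the cytokines without particles, and control islets were untreated. The stated aim was to examine whether the particles protect islets under cytokines, with function and immune pathways named as the readouts. No library with particles and without cytokines was analysed here, and neither the age of the mice nor the cytokine doses are in the labels.

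Pancreatic islets are clusters of endocrine cells that hold a small resident population of macrophages, the phagocytes that take up dying cells, sense microbial products and present antigen. Macrophages depend on the growth factor receptor Csf1r and on the transcription factor PU.1, the product of Spi1, for their development. Many of their receptors, Trem2 and the activating Fc receptors among them, have no long signalling tail of their own and pass their signal through the adaptors Tyrobp (also called DAP12) and Fcer1g. In islets, macrophages are known as a source of inflammatory cytokines that act on the beta cells beside them.

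Library totals lay between 17832949 and 55865759 counts, and the members took 0.0440% to 0.231% of them. Insulin transcripts took 15.4 ± 6.56% of counts in particle islets, 17.7 ± 4.23% in inflamed islets and 28.8 ± 0.351% in control islets (SD, n = 3 each), and their part in the results below was not tested. Particle replicate 2 held the most insulin among the particle libraries, at 21.6%, beside 8.55% and 16.1% in particle replicates 1 and 3. Several defining markers of other white blood cells had no count, and others were detected. No library held a count of the T and NK cell genes Cd3e, Cd2 and Nkg7, the B cell gene Ms4a1, the dendritic cell genes Xcr1 and Siglech, the neutrophil and monocyte gene Cxcr2, or the mast cell genes Mcpt4, Tpsb2 and Fcer1a. A count of 0 allowed up to 0.148 CPM (counts scaled to a common library total with TMM factors) in the library with the smallest scaled total, from 3 counts and for counting error only. The whole marker list of T and NK cells, with 12 genes, summed to 6.03 to 12.01 CPM in particle islets, 10.6 to 13.3 CPM in inflamed islets and 2.44 to 3.26 CPM in control islets, and 9 of its genes stayed under 1 CPM in every library. Its gene Lck ranged over 5.02 to 9.50 CPM in particle, 8.76 to 11.48 CPM in inflamed and 1.66 to 2.01 CPM in control islets, and was called higher in both treated groups than in control islets (adjusted p = 0.0042 for particle and 4.3e-04 for inflamed). The B cell gene Cd79a ranged over 3.40 to 7.24 CPM in particle, 0.984 to 5.81 CPM in inflamed and 6.72 to 34.2 CPM in control islets, and was called lower in inflamed than in control islets (adjusted p = 0.0206). The neutrophil and monocyte gene S100a9 ranged over 0.345 to 4.66 CPM in particle, 3.30 to 8.395 CPM in inflamed and 0 to 0.092 CPM in control islets, and the dendritic cell gene Zbtb46 over 1.045 to 6.32 CPM in particle, 4.22 to 5.30 CPM in inflamed and 0.289 to 1.38 CPM in control islets. The part of these cells in the results below was not tested.

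Promoter sequences were looked at for the binding motif of PU.1, the factor that macrophages share, since most members rose together in the inflamed islets. RefSeq windows of 300 bases on build GRCm38.p6, from 250 bases before to 50 bases after the start of a gene, were matched to 30 of the members. The core GAGGAA, on either strand, was found in 19 of these 30 windows, or 63.3%, against 28.3% of 27025 promoters. Windows of 4 members that hold the core are shown because they carry the contrasts described below. Coro1a and Mpeg1 carry the same contrasts, but their windows held no match. For Laptm5 and Trem2 the particle libraries overlapped the control libraries, while for Cd68 and Ctss they lay between the control and the inflamed libraries. They lie at chr4:130913066-130913365 (plus strand, Laptm5), chr17:48346151-48346450 (plus strand, Trem2), chr11:69666121-69666420 (minus strand, Cd68) and chr3:95526536-95526835 (plus strand, Ctss). Capitals mark GAGGAA, its reverse complement TTCCTC and, in Ctss, a match to the core of the element bound by interferon regulatory factors, which is GAAA, any 2 bases and GAAA again.
Laptm5: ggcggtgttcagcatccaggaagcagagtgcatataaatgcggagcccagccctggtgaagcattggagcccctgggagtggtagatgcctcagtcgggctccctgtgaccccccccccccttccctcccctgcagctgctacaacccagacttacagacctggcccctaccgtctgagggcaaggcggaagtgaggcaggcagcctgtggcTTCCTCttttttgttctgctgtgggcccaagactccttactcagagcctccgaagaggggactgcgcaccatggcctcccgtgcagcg
Trem2: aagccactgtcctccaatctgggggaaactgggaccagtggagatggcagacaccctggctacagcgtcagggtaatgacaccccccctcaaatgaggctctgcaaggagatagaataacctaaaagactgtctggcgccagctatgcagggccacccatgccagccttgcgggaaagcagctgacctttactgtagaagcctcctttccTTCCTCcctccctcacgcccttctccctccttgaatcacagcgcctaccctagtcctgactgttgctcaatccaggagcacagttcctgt
Cd68: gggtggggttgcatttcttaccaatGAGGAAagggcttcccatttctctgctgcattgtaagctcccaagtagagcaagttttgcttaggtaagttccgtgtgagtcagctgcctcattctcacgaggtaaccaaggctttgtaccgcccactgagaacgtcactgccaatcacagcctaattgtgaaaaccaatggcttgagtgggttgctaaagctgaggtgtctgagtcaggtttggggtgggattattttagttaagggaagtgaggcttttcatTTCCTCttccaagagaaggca
Ctss: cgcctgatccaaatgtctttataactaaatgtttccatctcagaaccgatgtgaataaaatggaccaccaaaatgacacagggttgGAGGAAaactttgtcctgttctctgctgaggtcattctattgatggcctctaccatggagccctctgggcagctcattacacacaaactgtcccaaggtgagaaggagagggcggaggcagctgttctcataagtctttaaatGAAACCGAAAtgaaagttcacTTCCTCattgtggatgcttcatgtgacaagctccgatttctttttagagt
The PU.1 type match lay 38 bases before the start in Laptm5 and 40 bases before it in Trem2. Cd68 held one 225 bases before the start and one 29 bases after it. Ctss held one 164 bases before the start, one at the start itself and the interferon type match 21 bases before it. The interferon type core was found in 2 of the 30 windows (Aif1 and Ctss), or 6.7%, against 3.49% of all promoters. The STAT type core, TTC and GAA with any 3 bases between them, was in 1 window, that of Fcgr1, or 3.3%, against 8.47% of all. Neither NF-kB type motif searched (GGGAA, any 1 base, TTCC; or GGGA, any 1 base, TTTCC) was in any member window, against 0.355% and 0.385% of all promoters. A match in such a window is a description of letters and not a bound site, and the capitals in the windows shown do not overlap one another.

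Inflamed islets were compared with control islets to ask what the cytokines did to the macrophage markers. Nearly the whole list rose. Of the 38 members tested, 34 were higher and 1 was lower (edgeR's quasi-likelihood test, adjusted p under 0.05 by the Benjamini-Hochberg method over 17276 genes), against 20.7% of all genes tested called higher and 19.0% called lower. The median log2 fold change of the tested members was 2.43, beside 0.05 over all genes tested. The 3 inflamed and 3 control libraries did not overlap for 34 members in the higher direction (background 28.3%) and 1 in the lower (background 28.5%). Mrc1 and Ccr2, which failed the filter, also lay lower in every inflamed than in every control library, on few counts. Passing the filter favoured a rise for members that were low in control islets, such as Lilrb4a and Itgam. The list was chosen with earlier results of these data known. Here and in the comparisons below, the shares of all genes therefore stand beside its counts as a description and not as a test of the list. In RNA of whole islets, more macrophages and more RNA of these genes per macrophage cannot be told apart. A list of 10 beta cell genes moved the other way in the same libraries, with 0 genes called higher and 9 called lower, and summed to 123600 to 229000 CPM in inflamed islets, against 341800 to 360100 CPM in control islets; its part in these results was not tested.

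Particle islets were compared with inflamed islets to ask what the nanoparticles added under cytokines. No member was called at an adjusted p under 0.05 by edgeR, and neither was any other gene (background 0.0% in both directions). At an unadjusted p under 0.05, 32 of the 38 members were lower and 0 were higher, against 5.49% and 9.58% of all genes tested. For 31 members all 3 particle libraries lay below all 3 inflamed libraries (background 6.82%), and for none did they all lie above (background 8.87%). The median log2 fold change of the tested members was -1.38, beside 0.04 over all genes. Other tools gave other counts: DESeq2 called 21 members lower and 0 higher (1.37% and 2.52% of the genes it tested), limma-voom called 3 and limma-trend on log2(FPKM + 1) called 4, each in the lower direction, where 0.081% and 0.0868% of all genes were called. Without particle replicate 3, edgeR called 18 members lower and 0 higher (1.71% and 3.56% of all genes tested).

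Set against control islets, particle islets had 16 of the 38 members called higher and 1 called lower by edgeR, against 11.4% and 5.92% of all genes tested. Groups did not overlap for 16 members in the higher direction (background 22.9%) and 3 in the lower (background 20.6%). At an unadjusted p under 0.05, 22 members were higher and 3 lower, against 19.7% and 13.8% of all genes. The median log2 fold change was 1.21, beside 0.05 over all genes. Leaving out 1 library at a time took the number called to between 6 (without control replicate 3) and 20 (without particle replicate 2), with 8 called without control replicate 1, 8 without particle replicate 3 and 11 without particle replicate 1. Over all genes tested, 4.92% were called higher and 1.27% lower without control replicate 3, and 13.4% and 11.8% without particle replicate 2. The shares were 6.53% and 2.7% without control replicate 1, 6.48% and 1.72% without particle replicate 3, and 6.97% and 1.24% without particle replicate 1. In the 10 other settings, 9 of the 17 members kept their call in each, and Fcgr1, Pirb, Msr1, Ly86, Itgam, Cd53, Lcp1 and Plek lost it in at least 1. The members called higher in all 9 of these omissions were Clec4n, Cd68, Itgb2, Cd52, Ctss and Mpeg1, or 6 of the 16. With library totals in place of TMM factors, 84.2% of the genes called in this comparison were higher, against 65.7% with them. Under library totals 19 members were called higher and 0 lower, against 18.5% and 3.46% of all genes tested. The comparison with control and the comparison with inflamed islets share the particle libraries, so the values of each are given side by side and not as support of one another.

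**Figure D1:**
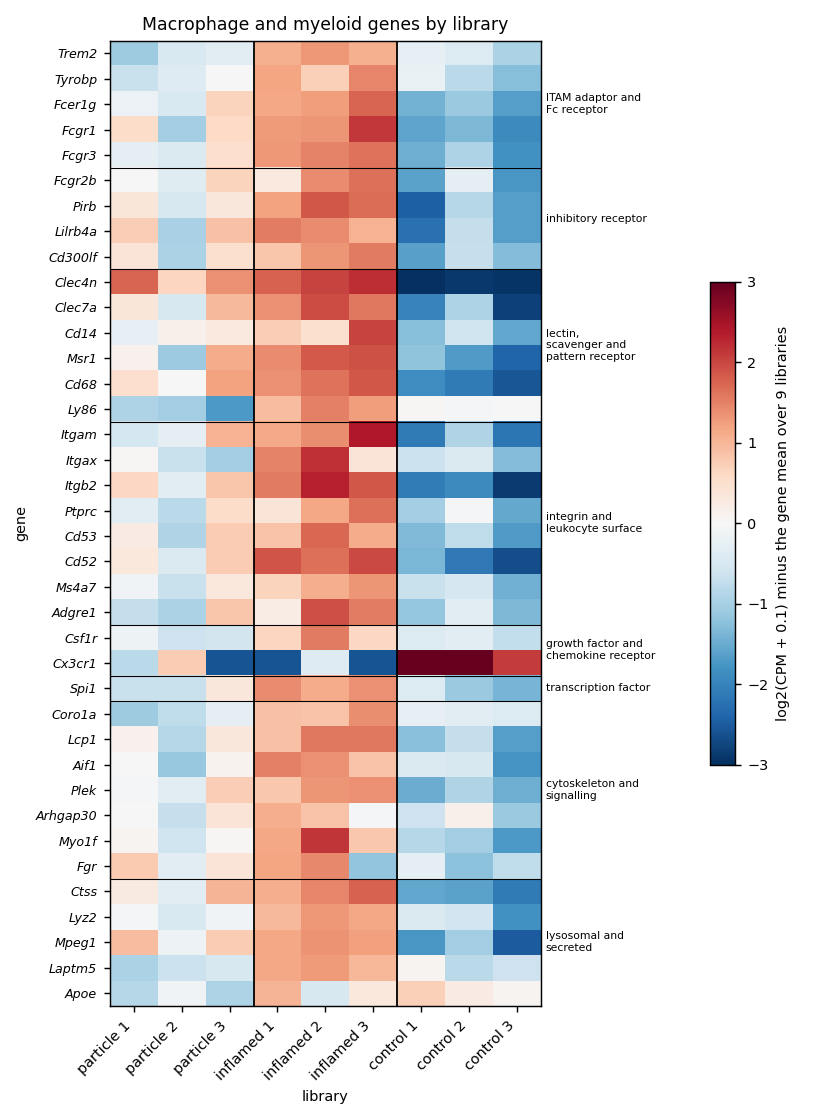
Level of each tested member in each of the 9 libraries as log2(CPM + 0.1), centred on the member's mean over the libraries, with particle libraries left, inflamed libraries in the middle and control libraries right; genes are ordered by role. The inflamed columns are high for most members, the control columns are low for many, and the particle columns lie between for many of them; Trem2, Coro1a, Laptm5, Ly86 and Apoe have particle means below their control means, and Cx3cr1 is highest in control islets.

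Adaptors and Fc receptors rose together under cytokines: all 5 of the members of this role were higher in inflamed than in control islets, with a median log2 fold change of 2.80. Tyrobp, the DAP12 adaptor, had 11.1, 13.6 and 17.5 CPM in particle islets, 40.0, 29.3 and 49.0 CPM in inflamed islets and 15.4, 10.03 and 7.21 CPM in control islets. The inflamed libraries lay above all others, and particle and control libraries overlapped. Its log2 fold change was 1.86 for inflamed against control (SE 0.31, adjusted p = 0.0012 by edgeR), -1.49 for particle against inflamed (SE 0.31, adjusted p = 0.12) and 0.37 for particle against control (SE 0.31, adjusted p = 0.428). Fcer1g, the common gamma chain of the activating Fc receptors, had 21.3, 17.5 and 38.5 CPM in particle islets, 53.6, 57.0 and 80.6 CPM in inflamed islets and 8.88, 11.04 and 7.61 CPM in control islets. Here the 3 groups formed 3 separate steps, and both treated groups were called above control, by 2.80 for inflamed (adjusted p = 1.3e-04) and 1.49 for particle islets (adjusted p = 0.00925) on the log2 scale. The particle call of Fcer1g was lost without control replicate 3 (adjusted p = 0.0551).

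Trem2, a lipid-sensing receptor on chromosome 17 from 48653429 to 48661175 (plus strand, GRCm39, as are the coordinates of all genes below), rose in inflamed islets. It had 4.78, 7.35 and 7.98 CPM in particle islets, 21.2, 25.1 and 21.2 CPM in inflamed islets and 8.55, 7.59 and 5.20 CPM in control islets. The inflamed libraries lay above all the others, and the particle and control libraries overlapped. The log2 fold change was 1.66 for inflamed against control (SE 0.28, adjusted p = 0.00114) and -1.75 for particle against inflamed (SE 0.28, adjusted p = 0.068, with a range of 7.04e-06 to 0.263 over the other tools, filters and omitted libraries). Between particle and control islets it was -0.08 (SE 0.27, adjusted p = 0.86), a difference whose sign turned to 0.18 when library totals were used without TMM factors. Fcgr1, the high-affinity receptor for IgG, and Fcgr3, a low-affinity activating one, were called higher in both treated groups. Fcgr3 averaged 14.8 ± 5.57 CPM in particle islets, 41.8 ± 4.72 CPM in inflamed islets and 5.74 ± 1.85 CPM in control islets (SD, n = 3 each), with the 3 groups apart. Fcgr1 averaged 4.07 ± 2.07 CPM in particle, 11.1 ± 3.94 CPM in inflamed and 1.103 ± 0.237 CPM in control islets (SD, n = 3 each). The particle call of Fcgr3 was lost without control replicate 1 or 3, and that of Fcgr1 without any 1 control library, particle replicate 1 or particle replicate 3, and the Fcgr genes share similar sequence, so that reads could have been assigned to the wrong one.

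Inhibitory receptors rose in the same libraries as the activating ones. All 4 members of this role, Pirb, Lilrb4a, Cd300lf and Fcgr2b, were called higher in inflamed than in control islets, with log2 fold changes of 2.35 to 3.23. Pirb, a receptor for MHC class I, had 4.33, 2.37 and 4.27 CPM in particle islets, 7.81, 12.5 and 10.9 CPM in inflamed islets and 0.537, 1.79 and 1.005 CPM in control islets. The groups were separate, and Pirb was also called higher in particle than in control islets (log2 fold change 1.72, adjusted p = 0.0273), a call lost without control replicate 1 or 3 or without particle replicate 1 or 3. Fcgr2b, the inhibitory IgG receptor, had 3.64, 2.77 and 5.80 CPM in particle islets, 4.42, 9.77 and 11.5 CPM in inflamed islets and 1.11, 2.94 and 1.005 CPM in control islets. Particle replicate 3 lay above inflamed replicate 1 and particle replicate 2 below control replicate 2, so the particle libraries overlapped both other groups. Without control replicate 2, whose level was the highest of the controls for all 4 of these genes, the log2 fold change for inflamed against control was 2.98 for Fcgr2b, against 2.35 with it, and 3.60 for Lilrb4a, against 2.995 with it. Lilrb4a ranged over 0.643 to 2.57 CPM in particle, 2.92 to 4.09 CPM in inflamed and 0.206 to 0.782 CPM in control islets, and the particle libraries lay below the inflamed ones. Cd300lf, an inhibitory receptor for lipids, ranged over 0.723 to 2.09 CPM in particle, 2.70 to 4.59 CPM in inflamed and 0.413 to 0.874 CPM in control islets. Both genes were not called in particle against control islets with all libraries, and were called (adjusted p = 0.0137 and 0.0384) without particle replicate 2. Pirb and Lilrb4a belong to families of near copies, and Cd300lf lies within Rab37, a gene with 20874 counts in all against its own 539, so their counts are uncertain to that extent.

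Lectins, scavenger receptors and pattern receptors held the largest rise of the list, that of Clec4n. All 6 tested members of this role were called higher in inflamed than in control islets, with a median log2 fold change of 3.46, and Mrc1 was not tested. Clec4n, the C-type lectin Dectin-2 (chromosome 6 from 123206802 to 123223980, plus strand), had 31.9, 14.9 and 24.7 CPM in particle islets, 32.9, 39.1 and 44.6 CPM in inflamed islets and 0.537, 1.20 and 1.15 CPM in control islets. Every treated library lay far above every control library, and particle replicate 1 came close to the lowest inflamed library. Its log2 fold change was 5.33 for inflamed against control (SE 0.39, adjusted p = 6.05e-06), 4.63 for particle against control (SE 0.38, adjusted p = 1.52e-05) and -0.71 for particle against inflamed (SE 0.31, adjusted p = 0.316).

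Cd68, a glycoprotein of late endosomes and lysosomes (chromosome 11 from 69555039 to 69556979, minus strand), had 100, 69.7 and 162 CPM in particle islets, 181, 217 and 259 CPM in inflamed islets and 19.4, 16.2 and 11.9 CPM in control islets. The groups did not overlap in any of the 3 comparisons. The log2 fold change was 3.79 for inflamed against control (SE 0.34, adjusted p = 2.36e-05), 2.80 for particle against control (SE 0.32, adjusted p = 1.93e-04) and -0.99 for particle against inflamed (SE 0.30, adjusted p = 0.182). Clec7a, the beta-glucan receptor Dectin-1, and the scavenger receptor Msr1 were called higher in both treated groups, by 3.40 and 3.51 in inflamed islets and by 2.14 and 2.07 in particle islets on the log2 scale, though the particle call of Clec7a was lost without particle replicate 3 or without control replicates 1 or 3 in turn, and that of Msr1 without control replicates 2 or 3 in turn or without particle replicate 3 (log2 fold change 1.39 in the last). Clec7a ranged over 10.5 to 29.03 CPM in particle, 38.3 to 57.5 CPM in inflamed and 2.04 to 7.73 CPM in control islets, and its log2 fold changes for inflamed and for particle against control were 4.03 and 2.76 without control replicate 2. Msr1 ranged over 2.57 to 12.2 CPM in particle, 15.2 to 21.4 CPM in inflamed and 0.969 to 2.35 CPM in control islets, with no overlap between groups. Cd14, which hands lipopolysaccharide to its signalling receptor, had 8.61, 11.3 and 12.6 CPM in particle islets, 17.0, 14.3 and 41.8 CPM in inflamed islets and 4.13, 6.76 and 3.37 CPM in control islets. The size of its rise rested in part on inflamed replicate 3: the log2 fold change for inflamed against control was 2.37 with it and 1.67 without it.

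Ly86, also called MD-1, the secreted partner of the receptor Cd180 (chromosome 13 from 37529184 to 37603012, plus strand), was the member called in opposite directions in the treated groups. It had 1.13, 1.04 and 0.610 CPM in particle islets, 4.32, 6.60 and 5.46 CPM in inflamed islets and 2.31, 2.16 and 2.26 CPM in control islets. No libraries of different groups overlapped, with particle islets lowest, control islets next and inflamed islets highest. The log2 fold change was 1.28 for inflamed against control (SE 0.38, adjusted p = 0.0214), -1.27 for particle against control (SE 0.40, adjusted p = 0.0482) and -2.55 for particle against inflamed (SE 0.40, adjusted p = 0.068, range 2.16e-06 to 0.263 over the alternatives). Both calls against control stood close to the threshold. The first was lost without any 1 control library or without inflamed replicate 2 (adjusted p of 0.0638 to 0.0888) or with no count filter (0.077), and the second without any 1 of 8 libraries, inflamed replicate 3 being the exception, and in 6 of the 10 other settings (adjusted p up to 0.112).

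Mrc1, the mannose receptor of tissue macrophages, was near the limit of counting. Its raw counts were 0, 3 and 5 in particle islets, 2, 0 and 0 in inflamed islets and 3, 11 and 3 in control islets. No fold is given for it.

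**Figure D2:**
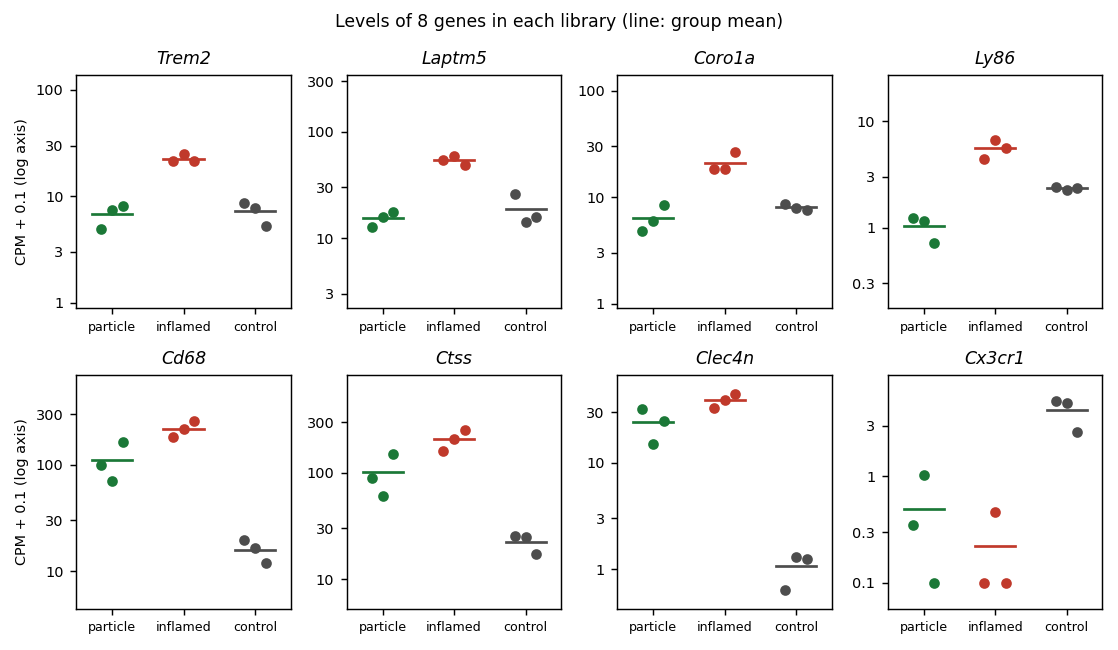
CPM + 0.1 of 8 members in each library on log axes that span the same number of decades in every panel, with particle libraries left, inflamed libraries in the middle and control libraries right, and a line at each group mean. Trem2, Laptm5 and Coro1a have particle and control points at one level, Clec4n and Cd68 have particle points near the inflamed ones, and Ly86 has its particle points below the control ones.

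Integrins and leukocyte surface proteins gave 8 of 8 members called higher in inflamed than in control islets and 4 of 8 in particle than in control islets. Itgb2, the beta chain that the leukocyte integrins share (chromosome 10 from 77366086 to 77401542, plus strand), had 41.9, 21.3 and 48.6 CPM in particle islets, 80.8, 138 and 98.5 CPM in inflamed islets and 6.32, 7.17 and 3.62 CPM in control islets. The groups were separate, and the log2 fold change was 4.21 for inflamed against control (SE 0.39, adjusted p = 2.92e-05) and 2.71 for particle against control (SE 0.36, adjusted p = 6e-04). Itgb2 pairs with several alpha chains. Itgax, the alpha chain also called CD11c, had 14.9, 9.20 and 7.11 CPM in particle islets, 41.01, 66.6 and 19.3 CPM in inflamed islets and 9.29, 10.7 and 5.88 CPM in control islets, with particle and control libraries overlapping. Itgam, the alpha chain also called CD11b, had 1.33, 1.61 and 4.18 CPM in particle islets, 4.46, 5.32 and 10.8 CPM in inflamed islets and 0.372, 1.01 and 0.359 CPM in control islets, with the 3 groups apart.

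Within a library, the ratio of Itgax to Itgam in CPM was 11.2, 5.72 and 1.70 in particle islets, 9.19, 12.5 and 1.78 in inflamed islets and 25.0, 10.6 and 16.4 in control islets. Replicate 3 of both treated groups had the lowest ratios, and the groups overlapped. Itgam was called higher in particle than in control islets (log2 fold change 2.04, adjusted p = 0.0452), a call lost in 6 of the 9 omissions of a library and in 6 of the 10 other settings, and at 1.35 without particle replicate 3, and Itgax was not (0.27, SE 0.43, adjusted p = 0.698). For inflamed against control Itgam was called at 3.58 (adjusted p = 0.00173), and without control replicate 2 its log2 fold changes for inflamed and for particle against control were 4.19 and 2.65. Cd52, a small anchored glycoprotein of leukocytes, averaged 8.94 ± 3.54 CPM in particle, 26.6 ± 3.14 CPM in inflamed and 1.80 ± 0.870 CPM in control islets (SD, n = 3 each). It was called higher in both treated groups in every omission of a library. The tyrosine phosphatase Ptprc (CD45), present on all white blood cells, had 2.71, 1.93 and 5.06 CPM in particle islets, 4.56, 7.75 and 11.03 CPM in inflamed islets and 1.65, 3.31 and 1.11 CPM in control islets. Its call for inflamed against control (log2 fold change 1.95, adjusted p = 0.0135) did not stand without inflamed replicate 3 or without control replicates 1 or 3 in turn, with adjusted p up to 0.0649. Ms4a7, Adgre1, which encodes the F4/80 antigen, and the tetraspanin Cd53 were called higher in inflamed islets by 1.89, 2.32 and 2.53 on the log2 scale, and of these Cd53 was also called in particle against control islets, although its groups overlapped there and the call was lost in 8 of the 9 omissions of a library and in 6 of the 10 other settings. Adgre1 ranged over 2.37 to 8.41 CPM in particle, 5.53 to 18.3 CPM in inflamed and 1.79 to 3.68 CPM in control islets, with particle libraries overlapping both other groups. Ms4a7 ranged over 7.11 to 14.2 CPM in particle, 18.1 to 28.4 CPM in inflamed and 4.09 to 8.003 CPM in control islets, and Cd53 over 3.46 to 11.2 CPM in particle, 11.9 to 21.7 CPM in inflamed and 1.94 to 3.82 CPM in control islets.

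Growth factor and chemokine receptors gave 1 member called higher and 1 called lower in inflamed than in control islets, and Ccr2 was not tested. Csf1r, the receptor for colony-stimulating factor 1 (chromosome 18 from 61233670 to 61265221, plus strand), had 17.9, 12.98 and 13.6 CPM in particle islets, 31.4, 58.8 and 30.7 CPM in inflamed islets and 15.2, 16.01 and 11.9 CPM in control islets. The inflamed libraries lay above all others. Its log2 fold change was 1.49 for inflamed against control (SE 0.28, adjusted p = 0.0022), -1.45 for particle against inflamed (SE 0.28, adjusted p = 0.116, range 0.00108 to 0.306 over the alternatives) and 0.04 for particle against control (SE 0.28, adjusted p = 0.931), where the sign depended on the scaling.

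Cx3cr1, the fractalkine receptor of resident macrophages (chromosome 9 from 119730682 to 119898945, minus strand), was the one member called lower in inflamed than in control islets. Its raw counts were 5, 23 and 0 in particle islets, 0, 8 and 0 in inflamed islets and 122, 105 and 70 in control islets, or 4.13 ± 1.40 CPM in controls (SD, n = 3). Every treated library lay below every control library, while particle and inflamed libraries overlapped. The fitted log2 fold change was -5.22 for inflamed against control (SE 1.5, adjusted p = 0.0167), a call that was lost without inflamed replicate 1 (adjusted p = 0.0533) or with no count filter (adjusted p = 0.0615). It was -3.37 for particle against control (SE 1.3, adjusted p = 0.0964), which was called at -5.09 without particle replicate 2 (adjusted p = 0.0371). All the counts in inflamed islets came from replicate 2. The log2 fold change for inflamed against control was -4.49 without inflamed replicate 3, and no fold is given without replicate 2, which leaves inflamed libraries with no count. The gene overlaps Gorasp1, Csrnp1 and Wdr48, which held 10525, 9181 and 4228 counts against its own 333, and no source used here says whether counting took account of strand. Ccr2, the receptor for the monocyte chemokine Ccl2, had 2, 2 and 1 raw counts in control islets and none in the other 6 libraries.

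Spi1, which encodes PU.1, rose under cytokines. It had 6.20, 6.23 and 12.7 CPM in particle islets, 26.9, 21.6 and 25.8 CPM in inflamed islets and 7.51, 4.55 and 3.73 CPM in control islets. Inflamed libraries lay above all others, and particle and control libraries overlapped. On the log2 scale, Spi1 differed by 2.23 for inflamed against control (SE 0.35, adjusted p = 9.15e-04), -1.56 for particle against inflamed (SE 0.35, adjusted p = 0.12) and 0.67 for particle against control (SE 0.35, adjusted p = 0.201).

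Cytoskeletal and signalling proteins gave 5 of 7 members called higher in inflamed than in control islets, and 2, Lcp1 and Plek, in particle than in control islets. Coro1a, an actin-binding protein of leukocytes (chromosome 7 from 126298945 to 126306959, minus strand), had 4.73, 5.87 and 8.28 CPM in particle islets, 18.4, 18.3 and 26.4 CPM in inflamed islets and 8.51, 7.87 and 7.53 CPM in control islets. Inflamed libraries stood alone, and the highest particle library lay among the controls. The log2 fold change was 1.40 for inflamed against control (SE 0.27, adjusted p = 0.00234), -1.74 for particle against inflamed (SE 0.27, adjusted p = 0.068, range 6.57e-06 to 0.263 over the alternatives) and -0.34 for particle against control (SE 0.27, adjusted p = 0.404). Lcp1, the actin-bundling protein L-plastin, had 21.2, 10.7 and 24.5 CPM in particle islets, 35.9, 57.8 and 57.9 CPM in inflamed islets and 8.01, 11.7 and 6.10 CPM in control islets. Particle replicate 2 lay among the controls, and the call against control (log2 fold change 1.13, adjusted p = 0.0456) was lost in 8 of the 9 omissions of a library, the exception being particle replicate 2, and in 6 of the 10 other settings.

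Plek, a substrate of protein kinase C, Myo1f, a class I myosin, and Aif1, the calcium-binding protein Iba1, were called higher in inflamed than in control islets by 2.49, 2.69 and 2.10 on the log2 scale. Plek ranged over 4.38 to 9.41 CPM in particle, 9.86 to 14.5 CPM in inflamed and 1.94 to 2.94 CPM in control islets, and its 3 groups were apart. Myo1f ranged over 4.90 to 7.88 CPM in particle, 13.04 to 33.4 CPM in inflamed and 2.19 to 4.05 CPM in control islets, and Aif1 over 1.77 to 4.32 CPM in particle, 7.34 to 11.7 CPM in inflamed and 1.11 to 2.97 CPM in control islets. The Src family kinase Fgr and the GTPase regulator Arhgap30 were not called in any comparison. Fgr had 1.23, 0.522 and 0.915 CPM in particle islets, 1.67, 2.02 and 0.241 CPM in inflamed islets and 0.537, 0.230 and 0.359 CPM in control islets. Inflamed replicate 3, the deepest library, was the low one: the log2 fold change for inflamed against control was 1.77 with it (SE 0.84, adjusted p = 0.115), and the gene was called (adjusted p = 0.0226) without it. Arhgap30 had 2.12, 1.29 and 2.83 CPM in particle islets, 4.65, 3.94 and 2.10 CPM in inflamed islets and 1.36, 2.39 and 0.933 CPM in control islets, and all 3 groups overlapped.

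Lysosomal and secreted proteins held several of the most abundant members. Deposited FPKM values, which take gene length into account, allow levels to be set side by side between genes. In particle islets Lyz2, Apoe, Cd68 and Ctss averaged 93.3 ± 14.3 FPKM, 90.0 ± 29.9 FPKM, 84.8 ± 35.6 FPKM and 71.8 ± 32.6 FPKM (SD, n = 3 each), and no neighbours in this order differed by more than their spread. In inflamed islets Lyz2, the macrophage lysozyme, averaged 238 ± 30.6 FPKM, Apoe 180 ± 85.9 FPKM, Cd68 170 ± 31.8 FPKM and Ctss 150 ± 36.0 FPKM, followed by Fcer1g at 71.2 ± 17.0 FPKM (SD, n = 3 each). In control islets Apoe led at 182 ± 41.3 FPKM, ahead of Lyz2 at 63.0 ± 27.1 FPKM, Ctss at 16.7 ± 3.43 FPKM, Tyrobp at 16.4 ± 6.06 FPKM and Cd68 at 12.7 ± 2.96 FPKM (SD, n = 3 each).

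Ctss, the protease cathepsin S that trims the MHC class II invariant chain (chromosome 3 from 95434097 to 95463714, plus strand), had 90.2, 60.9 and 152 CPM in particle islets, 160, 208 and 255 CPM in inflamed islets and 25.6, 24.7 and 17.1 CPM in control islets. The groups were separate, and the log2 fold change was 3.21 for inflamed against control (SE 0.35, adjusted p = 8.91e-05), 2.17 for particle against control (SE 0.33, adjusted p = 0.00152) and -1.04 for particle against inflamed (SE 0.32, adjusted p = 0.182). Mpeg1, the pore-forming protein perforin-2 (chromosome 19 from 12438143 to 12442647, plus strand), had 104, 49.1 and 92.0 CPM in particle islets, 122, 139 and 127 CPM in inflamed islets and 16.3, 26.2 and 9.65 CPM in control islets. Particle replicates 1 and 3 lay closer to the inflamed than to the control libraries. Particle replicate 2, at 49.1 CPM, lay nearer the highest control library than the lowest inflamed one. The log2 fold change of Mpeg1 was -0.66 for particle against inflamed (SE 0.35, adjusted p = 0.402) and 2.23 for particle against control (SE 0.36, adjusted p = 0.00229). Lyz2 averaged 127 ± 18.4 CPM in particle, 321 ± 37.6 CPM in inflamed and 82.1 ± 35.5 CPM in control islets (SD, n = 3 each). It was called higher in inflamed than in control islets (log2 fold change 1.97, adjusted p = 9.92e-04) and not in particle than in control islets (0.63, adjusted p = 0.178).

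Laptm5, a lysosomal membrane protein of blood cells (chromosome 4 from 130640436 to 130663452, plus strand), had the smallest adjusted p of the members between particle and inflamed islets. It had 12.6, 15.7 and 17.6 CPM in particle islets, 54.5, 59.6 and 48.7 CPM in inflamed islets and 26.1, 14.0 and 15.9 CPM in control islets. Inflamed libraries lay far above both other groups, which overlapped. The log2 fold change was -1.83 for particle against inflamed (SE 0.26, adjusted p = 0.0638, range 2.51e-07 to 0.263 over the alternatives), 1.54 for inflamed against control (SE 0.25, adjusted p = 0.00113) and -0.29 for particle against control (SE 0.25, adjusted p = 0.46). Apoe, the lipid carrier that cells other than macrophages also make, was not called in any comparison. It had 165, 277 and 156 CPM in particle islets, 599, 213 and 373 CPM in inflamed islets and 490, 352 and 314 CPM in control islets, and inflamed and control libraries overlapped fully. Every particle library lay below every control library, at -0.95 on the log2 scale (SE 0.37, adjusted p = 0.0973), and the gene was called (-1.30, adjusted p = 0.031) without particle replicate 2.

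**Figure D3:**
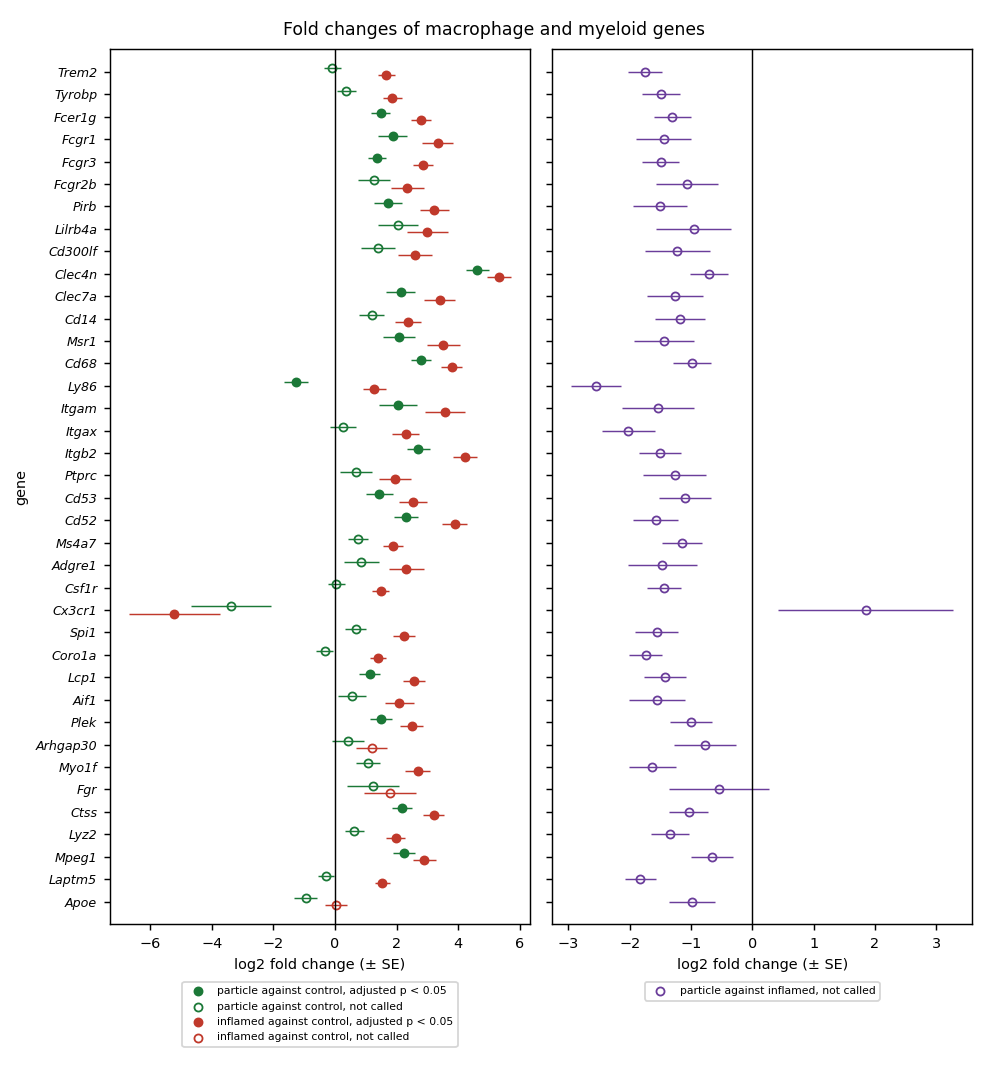
Log2 fold change with its standard error for each tested member, with particle against control and inflamed against control in the left panel and particle against inflamed in the right panel; filled points passed an adjusted p under 0.05. Nearly all inflamed against control values lie to the right of 0 and nearly all particle against inflamed values to the left with none filled, while particle against control values run from -3.37 for Cx3cr1 to 4.63 for Clec4n.

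Members were also set against one another within each library. The 3 members Ptprc, Laptm5 and Tyrobp, which white blood cells of several kinds share, were summed in each library, and each of the other 35 tested members was divided by that sum. The sum was 26.3, 31.2 and 40.2 CPM in particle islets, 99.1, 96.7 and 109 CPM in inflamed islets and 43.1, 27.3 and 24.2 CPM in control islets. Particle and control libraries overlapped in the sum, and inflamed libraries stood above both. With 3 libraries a group no exact test of a single ratio can go below p = 0.1, so the ratios are given as a description. The genes of the sum were chosen with their values known, and another choice would move the ratios.

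In inflamed islets 14 of the 35 ratios lay above every control library (background 5.27% of all genes) and 2, those of Cx3cr1 and Apoe, lay below (background 73.5%). The ratio of Cd68 was 3.80, 2.23 and 4.03 in particle islets, 1.83, 2.24 and 2.38 in inflamed islets and 0.451, 0.594 and 0.491 in control islets. Both treated groups lay above control and overlapped each other. The ratio of Clec4n was 1.21, 0.478 and 0.614 in particle islets, 0.332, 0.404 and 0.410 in inflamed islets and 0.0125, 0.0438 and 0.0475 in control islets, so that particle libraries were highest. Clec4n and Mpeg1 were the 2 members whose ratio was higher in every particle library than in every inflamed one, against a background of 79.3%. The backgrounds that involve inflamed islets follow the sum itself, which averaged 32.6 CPM in particle, 101.5 CPM in inflamed and 31.5 CPM in control islets. A lower sum raises the ratio of any gene that did not change. The shares of members and of all genes can therefore not be weighed against each other there. Ly86 was the 1 member whose ratio was lower in particle than in inflamed islets (background 0.0752%), at 0.0430, 0.0335 and 0.0152 in particle, 0.0436, 0.0683 and 0.0502 in inflamed and 0.0536, 0.0791 and 0.0935 in control islets.

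Particle islets had 18 of the 35 ratios above every control library (background 14.6%) and 3, those of Ly86, Cx3cr1 and Apoe, below (background 10.5%). The ratio of Trem2 was 0.181, 0.236 and 0.198 in particle islets, 0.214, 0.260 and 0.195 in inflamed islets and 0.198, 0.278 and 0.215 in control islets, and all groups overlapped. The ratio of Coro1a overlapped in the same way. Spi1 lay at 0.236, 0.200 and 0.316 in particle islets, 0.272, 0.223 and 0.238 in inflamed islets and 0.174, 0.167 and 0.154 in control islets, with both treated groups above control. In all, 14 of the 35 ratios overlapped in all 3 comparisons, and 14 lay above control in both treated groups. No share over all genes was computed for either pattern, so these counts describe the members alone.

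**Figure D4:**
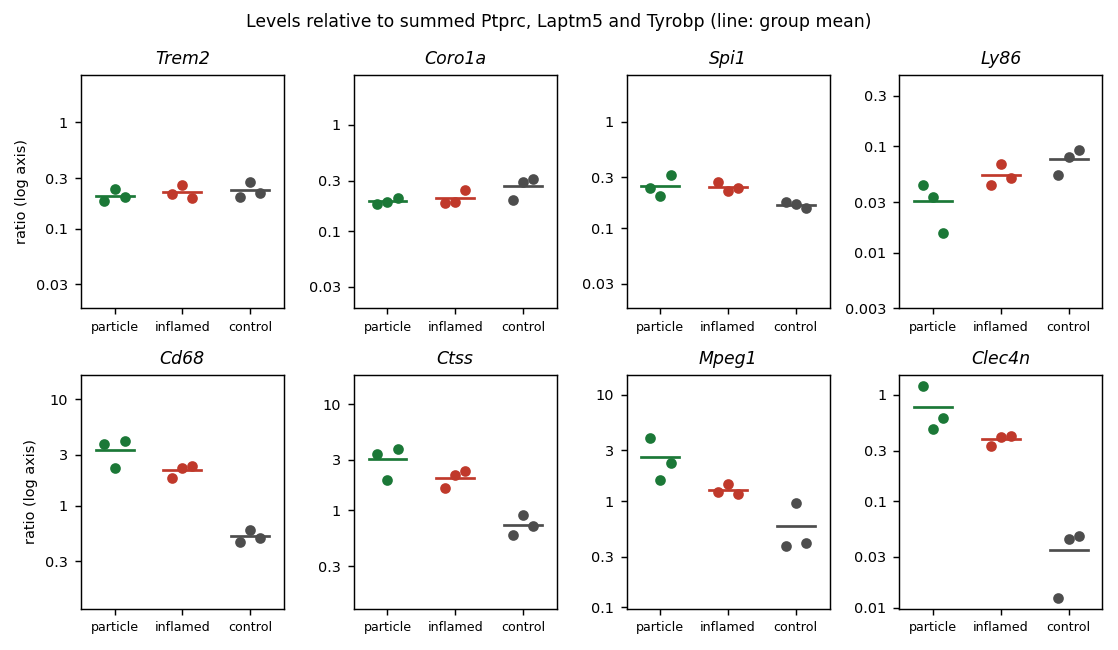
Level of 8 members relative to the summed CPM of Ptprc, Laptm5 and Tyrobp in each library, on log axes that span the same number of decades in every panel; particle libraries are left, inflamed libraries in the middle and control libraries right, with a line at each group mean. Trem2 and Coro1a overlap across groups, Cd68, Ctss, Mpeg1 and Clec4n lie higher in both treated groups than in control islets, and Ly86 lies lowest in particle islets.

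Other genes of macrophages moved in the same libraries. All of 20 genes that carry the signal from DAP12 and the Fc receptors were tested. Of these, 17 were higher in inflamed than in control islets (background 20.7%) and 9 were higher in particle than in control islets (background 11.4%). None was called in particle against inflamed islets, although for 15 the particle libraries lay below the inflamed ones (background 6.82%). The kinase Lyn had the smallest adjusted p of the list between inflamed and control islets, at a log2 fold change of 3.66 (adjusted p = 4.4e-05), beside the adaptor Blnk at 4.07 (adjusted p = 1.25e-04) and Hcls1 at 3.26 (adjusted p = 8.46e-05). In particle against control islets the same 3 genes had 3.003, 2.36 and 2.15 on the log2 scale, in the order Lyn, Blnk and Hcls1. Of 12 myeloid transcription factors, 11 were tested and 6 were higher in inflamed than in control islets (background 20.7%). Irf8, which works with PU.1, had log2 fold changes of 3.49 for inflamed against control (adjusted p = 3.16e-05) and 2.56 for particle against control (adjusted p = 2.99e-04). Irf5 had 2.79 for inflamed against control (adjusted p = 3.47e-05) and 0.98 for particle against control (adjusted p = 0.0242).

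Ligands of receptors on the list were measured too. Of 11 growth factors, chemokines and their receptors, 10 were tested. In inflamed against control islets 7 of them were called higher and 1 was called lower (background 20.7% and 19.0%). Ccl2, Ccl7 and Ccl12 had at most 20, 7 and 1 counts in any control library and their highest counts in treated ones. Passing the filter therefore favoured a rise for them, and the number called is no result about the list. Csf1, the ligand of Csf1r, had a log2 fold change of 4.12 for inflamed against control (adjusted p = 6.48e-05) and 3.46 for particle against control (adjusted p = 2.38e-04). Ccl2, the ligand of the barely detected Ccr2, had 8.64 and 6.67 in the same 2 comparisons (adjusted p = 0.00105 and 0.00674). Its raw counts in control islets were 5, 20 and 4, so the size of both folds rests on few counts. Ccl2 ranged over 7.84 to 93.5 CPM in particle and 86.8 to 260 CPM in inflamed islets. Cx3cl1, the ligand of Cx3cr1, was not called in any comparison: it had 24.02, 13.7 and 18.3 CPM in particle islets, 28.5, 16.2 and 25.9 CPM in inflamed islets and 29.3, 18.7 and 27.7 CPM in control islets, and all groups overlapped. Csf2rb, the signalling chain of the receptor for granulocyte-macrophage colony-stimulating factor, rose by 3.26 in inflamed against control islets (adjusted p = 1.91e-04), and Csf2ra, the binding chain, fell by 0.93 in the same comparison (log2 scale, adjusted p = 0.0134).

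Among 30 further macrophage genes, 24 were tested. In inflamed against control islets 14 of them were called higher and 1 was called lower (background 20.7% and 19.0%). For a gene such as Marco, with no count in control islets, passing the filter favoured a rise. Adam8, Slc11a1 and Lgals3 rose by 3.41, 3.63 and 3.70 on the log2 scale. P2ry12, a nucleotide receptor known from resting microglia, was the one called lower, and it resembled Cx3cr1 in its counts. These were 10, 32 and 0 in particle islets, 2, 0 and 0 in inflamed islets and 92, 73 and 77 in control islets. The inflamed libraries lay above all controls for 15 tested genes and below them for 3 (background 28.3% and 28.5%), namely P2ry12, Lyve1 and Tmem119. Lyve1 ranged over 0.9845 to 2.45 CPM in particle, 0 to 1.375 CPM in inflamed and 2.93 to 6.07 CPM in control islets. Tmem119 ranged over 0.098 to 1.21 CPM in particle, 0.367 to 2.56 CPM in inflamed and 2.89 to 3.50 CPM in control islets. In particle against control islets 7 of the 24 tested genes were called higher and 1 was called lower (background 11.4% and 5.92%). The resident macrophage genes Timd4, Cd163, Folr2, F13a1 and Vsig4 stayed under 1 CPM in every library. Of the 3 C1q chains, C1qb and C1qc were called higher in inflamed than in control islets, and C1qa was called lower in particle than in control islets (log2 fold change -1.51, adjusted p = 0.00843). All 8 MHC class II genes were called higher in inflamed than in control islets (background 20.7%), and 7 of the 8 in particle than in control islets (background 11.4%).

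Lists of other cells were measured in the same libraries. Neutrophil and monocyte genes summed to 13.03 to 15.9 CPM in particle islets, 11.7 to 50.6 CPM in inflamed islets and 7.72 to 54.1 CPM in control islets. Of the 7 tested, 2 were called higher in inflamed than in control islets, near the share of all genes tested (20.7%). Dendritic cell genes summed to 2.01 to 7.80 CPM in particle islets, 6.28 to 9.16 CPM in inflamed islets and 0.619 to 1.52 CPM in control islets. Of the 8 genes 5 stayed under 1 CPM in every library. The 3 tested, Zbtb46, Clec9a and Itgae, were called higher in inflamed than in control islets (background 20.7%), and for 2 of them these groups did not overlap. Clec9a had raw counts of 46, 58 and 0 in inflamed and 0, 3 and 0 in control islets. The tested genes had their highest counts in treated libraries, so passing the filter favoured a rise and their number is no result about the list. Endothelial genes summed to 7.43 to 35.3 CPM in particle islets, 7.11 to 12.5 CPM in inflamed islets and 33.3 to 86.1 CPM in control islets, with 6 of 10 called lower in inflamed than in control islets (background 19.0%). Acinar genes differed between single libraries of every group, from 5.96 to 3186 CPM in particle, 27.7 to 2643 CPM in inflamed and 22.5 to 1366 CPM in control islets, and none was called. The part of these lists in the members' results was not tested.

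**Figure D5:**
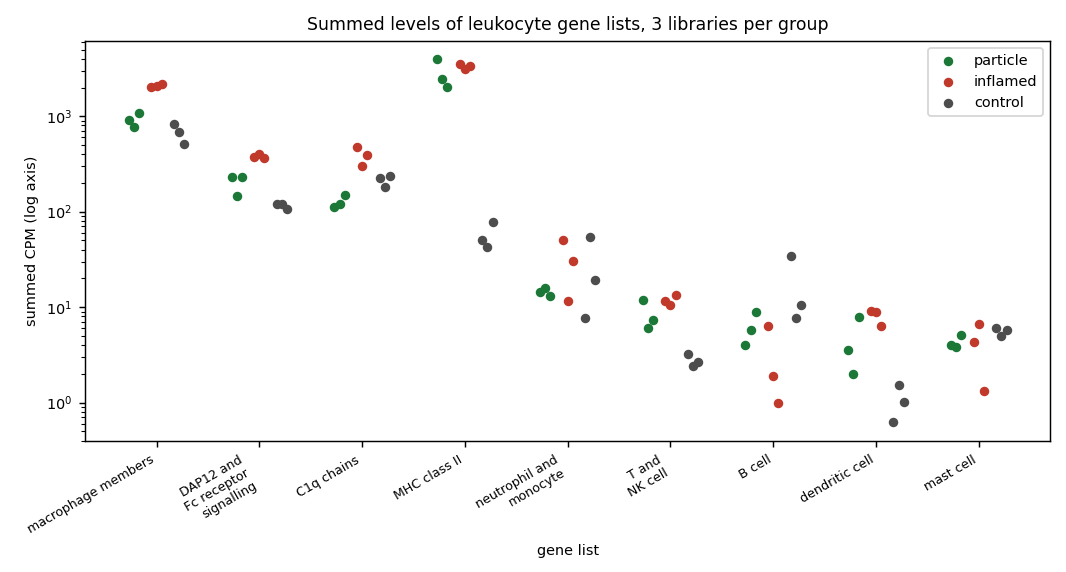
Summed CPM of the members and of other marker lists in each library on a log axis, with particle libraries left, inflamed libraries in the middle and control libraries right for each list. The members sum to 779 to 1094 CPM in particle islets, 2038 to 2190 CPM in inflamed islets and 506 to 826 CPM in control islets. The T and NK cell list sums to 6.03 to 12.01 CPM in particle, 10.6 to 13.3 CPM in inflamed and 2.44 to 3.26 CPM in control islets. Its sum too is higher in both treated groups, but Lck alone makes up most of it in every library. In that list 9 of the 12 genes stay under 1 CPM in every library.

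As a whole the 40 members found summed to 927 ± 158 CPM in particle islets, 2093 ± 84.1 CPM in inflamed islets and 675 ± 161 CPM in control islets (SD, n = 3 each). Inflamed libraries lay above all others, and particle and control libraries overlapped. Apoe made up much of the sum in control islets. Without it the members summed to 743, 502 and 938 CPM in particle islets, 1438, 1838 and 1817 CPM in inflamed islets and 336, 339 and 192 CPM in control islets, and no 2 groups overlapped. Particle replicate 2, the library richest in insulin transcripts among the particle ones, had the lowest sum of the particle islets, and particle replicate 3 the highest.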

How the data were processed

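The deposited counts are whole-number, unnormalized reads per gene, and the deposited FPKM values scale the authors' counts by gene length and library. The submitters' processing notes name the tools HTSeq and DESeq2, without a version, and the build GRCm39 (mm39). Columns were matched by name, and the control columns as the set left after the inflamed and particle ones.

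Counts were tested with edgeR 4.0.16 (R 4.3.3; filterByExpr with a minimum count of 10, TMM, robust quasi-likelihood fit of all 9 libraries), and p-values were adjusted by Benjamini-Hochberg over 17276 genes. CPM uses TMM-scaled totals. The procedure was tested on simulated data. Alternatives used DESeq2 1.42.0, limma 3.58.1 (voom, and limma-trend on log2 of FPKM plus 1 or 0.1), other factors and filters, fits of the compared libraries alone, a replicate block, and each library left out in turn.

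Members and lists were chosen with earlier results of these data known. Named genes were, in each role, those with the smallest adjusted p and any not called or lower, the 8 with the smallest adjusted p between particle and inflamed islets, and up to 3 per other list, with list genes that fell; other members are named to account for the list, and a few genes are not reported here. Labels do not say whether replicates came from separate animals or cultures, so p-values cover only the spread among these samples, and that spread may be technical. Chi-square per degree of freedom between replicates was 39.4 to 186, highest between particle replicates 1 and 2, so replicates differed by more than counting error. All libraries were kept, and these values are no check of their quality. Floors of 3 counts cover counting error only. Motif matches used the first RefSeq window per gene on GRCm38.p6, an earlier build than that of the files.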

Additional observations from a re-analysis of the deposited data

How the results depend on the processing

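Inflamed against control counts held under every alternative: 33 to 35 members were called in the other settings, and 33 to 35 when 1 library was left out. For particle against inflamed islets, 14 members were called with no count filter (0.336% of all genes called lower), 21 by DESeq2, 3 by limma-voom (0.081%), 4 by limma-trend on log2(FPKM + 1) (0.0868%) and 3 on log2(FPKM + 0.1) (0.0521%), and 0 to 18 with 1 library left out, against 0 as reported; all were lower in particle islets, and the cause was not tested. For particle against control islets, 10 members were called by limma-trend on log2(FPKM + 1) (8.71% of all genes higher and 11.7% lower) and 6 to 20 with 1 library left out, against 17 as reported. No paired layout is stated, and same-numbered libraries correlated at -0.184 to 0.206 in their deviations. A replicate block called 14 members for particle against control (9.42% of all genes higher and 5.61% lower). It called 0 for particle against inflamed (0.0% in both directions) and 35 for inflamed against control (18.2% higher and 17.2% lower).

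The differences that changed direction under some alternative were those of Trem2, Csf1r, Itgax, Fgr and Apoe below, none of them called as reported. Trem2 in particle against control islets was -0.08 as reported, 0.18 under library totals and -0.31 to 0.11 with 1 library left out. Csf1r there was 0.04, against -0.02 with RLE factors, DESeq2 and both limma-trend fits, -0.01 with no filter and -0.12 to 0.10 with 1 library left out. Itgax there was 0.27 and ran from -0.08 to 0.48 with 1 library left out. Fgr in particle against inflamed islets was -0.54 and 0.39 by limma-voom. Apoe in inflamed against control islets was 0.03, against -0.01 with RLE factors and with the compared libraries alone, -0.02 with no filter and DESeq2, -0.06 by limma-voom, -0.11 by both limma-trend fits and -0.41 to 0.33 with 1 library left out.

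Library totals without TMM factors moved the median log2 fold change of all genes to 0.32 for particle against control, 0.13 for particle against inflamed and 0.22 for inflamed against control, against 0.05, 0.04 and 0.05 with TMM. Fgr, Lilrb4a and Cx3cr1 rest on few counts, and 3 libraries a group limit every call.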
